A study of Equus caballus with 4 samples.

Results

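The genes described here encode both chains of the type I interferon receptor (*IFNAR1* and *IFNAR2*), the kinase *JAK1*, the signal transducer *STAT2* and the interferon regulatory factors *IRF1*, *IRF2*, *IRF3*, *IRF7* and *IRF9*. They were selected by name, by a choice made with their ratios on these same arrays already known, so their ratios are given as a description and were not tested. By the gene names in the array files, 8 of the 9 had a probe, out of 24998 gene names on the whole array, and none was found for *IRF3* under that name. In HMB-treated v. control cells, *IRF7* mRNA was at 23.9% of the control level and *IRF9* mRNA at 43.8%, and both were lower on each of the 4 arrays. The mean log2 ratios of the other 6 genes, which include the receptor, its kinase and *STAT2*, lay between -0.22 and 0.09.

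Equine satellite cells (ESC), the muscle precursor cells of the horse, came from m. semitendinosus of 6-month-old colts and were differentiated in culture. On the 3rd day of differentiation they were given for 24 h the leucine metabolite β-hydroxy-β-methylbutyrate (HMB), while control cells stayed in differentiation medium without it. The methods give the dose as 50 µM and the labels as 50 µg. Each of 4 two-colour arrays on 1 slide carried HMB-treated cells in Cy5 and control cells in Cy3 (n 4), and since the dyes were never exchanged, HMB and a bias of a probe towards 1 dye cannot be told apart. Nothing in the sources used here names the colt behind each sample of an array, so P values measure the spread between these 4 arrays. The cultures were measured in bulk, so that less mRNA per cell and fewer cells holding it cannot be told apart.

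Type I interferons are secreted proteins of the antiviral defence that bind a receptor of the chains IFNAR1 and IFNAR2. The kinases TYK2 and JAK1, which sit on these chains, then phosphorylate STAT proteins, and STAT2 enters with IRF9 into a complex, ISGF3, that binds the promoters of interferon-stimulated genes. IRF7 is itself the product of such a gene and, like IRF3, switches on interferon genes once sensors of viral nucleic acid have activated it, so that the pathway can feed itself. In skeletal muscle a strong interferon response is known from dermatomyositis, and interferon gamma is known to slow the differentiation of cultured myoblasts.

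The value of a gene is the log2 ratio of HMB-treated to control cells on an array, so that a negative value stands for less mRNA with HMB, and errors are SD over the 4 arrays. Where a gene had several probes, the one of highest mean signal stood for it. The arrays carried 16 probes for the 8 genes, and every one of them cleared the background limit for control as well as HMB-treated cells on every array, so that none entered the analysis through 1 channel alone. Over the array, 27384 probes for 15568 genes were tested with limma, and 22.8% of the probes and 22.5% of the genes had an adjusted P of at most 0.05, with 11.6% of the genes lower and 10.9% higher with HMB. By the same rule, *IRF7* and *IRF9*, 2 of the 8 genes, were past the threshold and lower, and nothing is read from this count because the choice of genes used these ratios. The median of the 8 mean ratios was -0.11 and that of all tested genes 0.02, with 6 of the 8 below 0. The plot of ratios by array shows the 8 genes in the order in which a signal passes them.

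**Figure D1:**
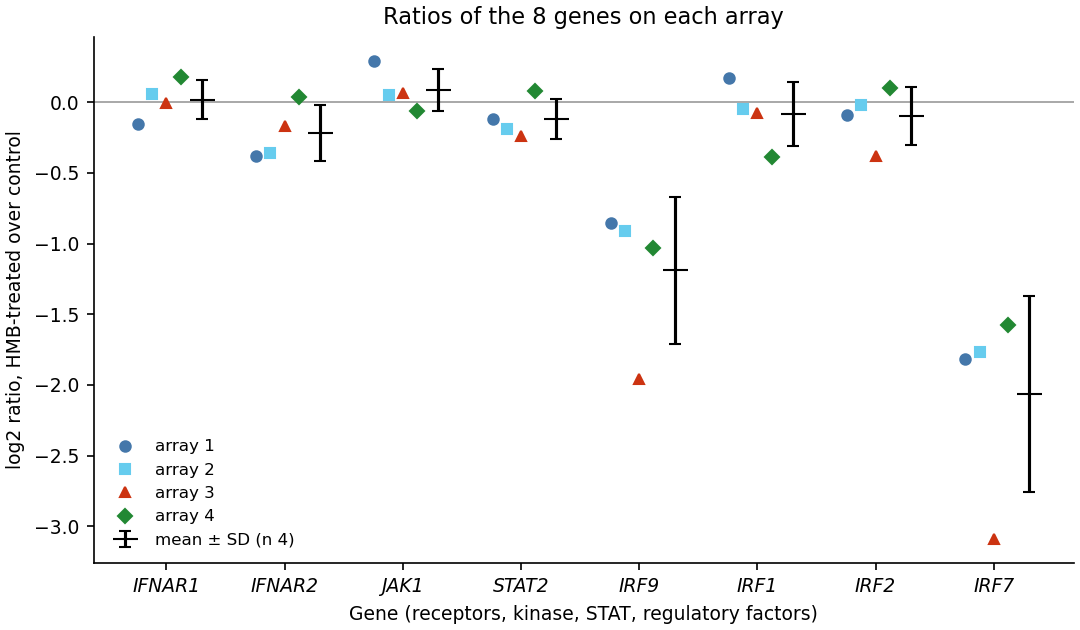
Log2 ratio of HMB-treated to control cells for each gene (x axis) on arrays 1 to 4 (coloured symbols), with the mean and SD (black, n 4). *IRF9* and *IRF7* lay below 0 on all 4 arrays, lowest on array 3 at -1.96 and -3.09, and the other 6 genes stayed between -0.39 and 0.29.

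*IFNAR1* (ENSECAT00000010825) encodes the receptor chain that holds the kinase TYK2. Its 2 probes lie end to end on the minus strand of chromosome 26 in the EquCab1 build, the brighter at chr26:11882696-11882755. The log2 ratio of the brighter probe was -0.16, 0.06, -0.0038 and 0.18 on arrays 1 to 4. The arrays thus fell on both sides of 0, with 2 below it and 2 above. The mean was 0.02 ± 0.14 (n 4), and the second probe gave -0.05 ± 0.12. On the log2 scale the signal was 7.73 ± 0.18 in control and 7.75 ± 0.08 in HMB-treated cells.

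*IFNAR2* (ENSECAT00000003379) encodes the chain that binds interferon most tightly and holds JAK1. Its 5 probes are shifted against each other by single bases at one site of chromosome 26, the brightest at chr26:11966389-11966448 on the minus strand. The brightest is shown because all 5 share the 56 bases in capitals and so measure 1 stretch of the mRNA:
IFNAR2: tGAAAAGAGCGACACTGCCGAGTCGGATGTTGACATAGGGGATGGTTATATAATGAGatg
The log2 ratio of this probe was -0.38, -0.36, -0.17 and 0.04 on arrays 1 to 4. Arrays 1 and 2 were low, array 3 was nearer 0 and array 4 just above it. The mean of -0.22 ± 0.20 (85.9% of control) was the lowest among the 6 genes not past the threshold, and the means of the 5 probes lay between -0.22 and -0.11. The signal in control cells was 8.96, 8.99, 8.66 and 8.44, a range of 0.55 on the log2 scale. In HMB-treated cells it was 8.58, 8.63, 8.48 and 8.48, a range of 0.15. The spread between arrays in *IFNAR2* thus lay mainly in the control channel.

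Both receptor genes lie in a cluster of cytokine receptor genes on chromosome 26. The probes of *IFNGR2*, *IFNAR1*, *IL10RB* and *IFNAR2* follow each other in this order on the minus strand within 163181 bases. The gap between the probes of *IFNAR1* and *IFNAR2*, with *IL10RB* inside it, is made of steps of 57804 and 25771 bases. *IL10RB*, which encodes a chain shared by receptors of interleukin 10 and interferon lambda, had a mean log2 ratio of -0.21 ± 0.24 (adjusted P = 0.171). *IFNGR2*, which encodes a chain of the interferon gamma receptor, had 0.06 ± 0.21 (adjusted P = 0.665). None of the 4 receptor genes of the cluster was past the threshold.

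*JAK1* (ENSECAT00000020532) encodes the tyrosine kinase that serves both IFNAR2 and the interferon gamma receptor. Its brighter probe is at chr5:68881208-68881267, and on arrays 1 to 4 it gave log2 ratios of 0.29, 0.05, 0.07 and -0.06. Array 1 stood highest and array 4 was the 1 array below 0. The mean was 0.09 ± 0.15, the highest of the 8 genes. The second probe, whose 60 bases are spread over 805 bases of the genome, gave 0.08 ± 0.19, with the same array on top. The signal of *JAK1* was 9.28 ± 0.15 in control and 9.37 ± 0.11 in HMB-treated cells.

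*STAT2* (ENSECAT00000024249) encodes the transducer that binds IRF9 and brings it into ISGF3. Of its 3 probes, on unplaced sequence, the brightest is shown, with the 58 bases that all 3 share in capitals:
STAT2: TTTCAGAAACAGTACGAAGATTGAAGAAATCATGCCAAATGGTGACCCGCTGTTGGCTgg
The log2 ratio of this probe was -0.12, -0.19, -0.24 and 0.08 on arrays 1 to 4. Values of both signs were present, and the 3 probes gave means between -0.16 and -0.09. For *STAT2* the mean was -0.12 ± 0.14 (92.1% of control). Its signal in control cells was 8.55, 8.07, 8.18 and 7.77, and in HMB-treated cells 8.43, 7.88, 7.94 and 7.84. Both channels were highest on array 1 and lowest on array 4, and the differences between arrays were larger than those between HMB-treated and control cells.

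*IRF9* (ENSECAT00000026310) encodes the DNA-binding subunit of ISGF3. A single probe measured it, on the minus strand of unplaced sequence (chrUn:180659975-180660034), and it is shown whole because the value of the gene rests on it alone:
IRF9: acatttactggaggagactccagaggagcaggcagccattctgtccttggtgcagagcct
The log2 ratio of *IRF9* was -0.86, -0.91, -1.96 and -1.03 on arrays 1 to 4. All 4 arrays were below 0, arrays 1, 2 and 4 close together and array 3 far lower. The mean was -1.19 ± 0.52, or 43.8% of control, and 102 of the 15568 tested genes had a lower mean. In control cells the signal was 9.16, 8.22, 9.55 and 8.04. The signal in HMB-treated cells was 8.30, 7.31, 7.59 and 7.01, so that the HMB-treated sample of array 1 lay above the control samples of arrays 2 and 4. Within every array, though, the HMB-treated cells had less *IRF9* mRNA than the control cells beside them.

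IRF9 and STAT2 proteins work in 1 complex, but the ratios of their mRNA stood apart. On arrays 1 to 4, the log2 ratio of *IRF9* minus that of *STAT2* was -0.74, -0.72, -1.72 and -1.11. The mean difference of -1.07 ± 0.47 had the same sign on all arrays and was larger than its spread. It was not tested, since the choice of both genes used these ratios.

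*IRF1* (ENSECAT00000018999) encodes an activator of transcription that is itself induced by interferons, interferon gamma above all. Its probe on chromosome 14 reaches from 42335582 to 42337197, so that its 60 bases skip 1556 bases of the genome, as a probe across an intron does. On arrays 1 to 4 the log2 ratios of *IRF1* were 0.17, -0.05, -0.08 and -0.39. Array 1 was above 0 and array 4 lowest. The mean of *IRF1* was -0.09 ± 0.23. Its signal in control cells hardly varied, at 5.91 ± 0.05, while that in HMB-treated cells was 5.83 ± 0.23. The spread of the *IRF1* ratios thus came with the HMB channel, the reverse of *IFNAR2*.

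*IRF2* (ENSECAT00000007884) encodes a factor that binds sites like those of IRF1 and mostly represses them. Its probe, on chromosome 27 from 24896920 to 24907974, skips 10995 bases. The log2 ratio of *IRF2* was -0.09, -0.02, -0.38 and 0.10 on arrays 1 to 4, and the mean was -0.10 ± 0.20. Array 3 was lowest, as for *IRF9*, and array 4 was above 0. The signal was 4.57 ± 0.16 in control and 4.47 ± 0.23 in HMB-treated cells.

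*IRF3* encodes the factor that, like IRF7, is activated by the kinases TBK1 and IKBKE. No probe had *IRF3* as its gene name, but the description of 1 probe (ENSECAT00000019481, chrUn:234551372-234551431) names interferon regulatory factor 3, and its values are given apart from the 8 genes. They were 0.14, 0.05, -0.04 and -0.31 on arrays 1 to 4, a mean of -0.04 ± 0.20 on both sides of 0. The signal was 11.13 ± 0.11 in control and 11.09 ± 0.16 in HMB-treated cells.

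*IRF7* (ENSECAT00000010020) encodes the factor that drives most interferon alpha genes and is low in most cells until interferon induces it. It too had a single probe, on the minus strand of unplaced sequence (chrUn:305567879-305567938), shown whole for the same reason as that of *IRF9*:
IRF7: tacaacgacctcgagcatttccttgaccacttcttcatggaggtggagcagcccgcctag
The log2 ratio of *IRF7* was -1.82, -1.77, -3.09 and -1.57 on arrays 1 to 4. Every array was far below 0, with array 3 lowest and the other arrays within a narrow range. The mean was -2.06 ± 0.69, or 23.9% of control, and 22 of the 15568 tested genes had a lower mean. In control cells the signal was high on arrays 1 and 3, at 12.02 and 12.98, and low on array 4, at 10.69, and on array 2, nearly level with array 4. The signal in HMB-treated cells was 10.21, 8.93, 9.89 and 9.12, with the same pair of arrays high. All 4 HMB-treated samples lay below all 4 control samples of *IRF7*.

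The levels of *IRF7* differed between the control samples more than those of nearly all other genes. Its control signal had an SD of 1.11 on the log2 scale, and 42 of the 15568 tested genes had a larger one, whereas the median gene had 0.15. This was not particular to *IRF7*. The median of the 33 interferon-stimulated targets described below was 0.88, and some of them, such as *ISG15* (1.31) and *MX1* (1.69), were above *IRF7*. For *IRF9* the SD of the control signal was 0.73, with 260 genes above it. In HMB-treated cells the SD was 0.61 for *IRF7* and 0.55 for *IRF9*, with the median gene at 0.18. The median signal of all tested genes in control cells was 8.53, 8.43, 8.47 and 8.48 on arrays 1 to 4, so that the arrays themselves were nearly level. The control samples rich in *IRF7* mRNA were thus also those rich in *IRF9* mRNA, as the plot of signals in both channels shows.

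**Figure D2:**
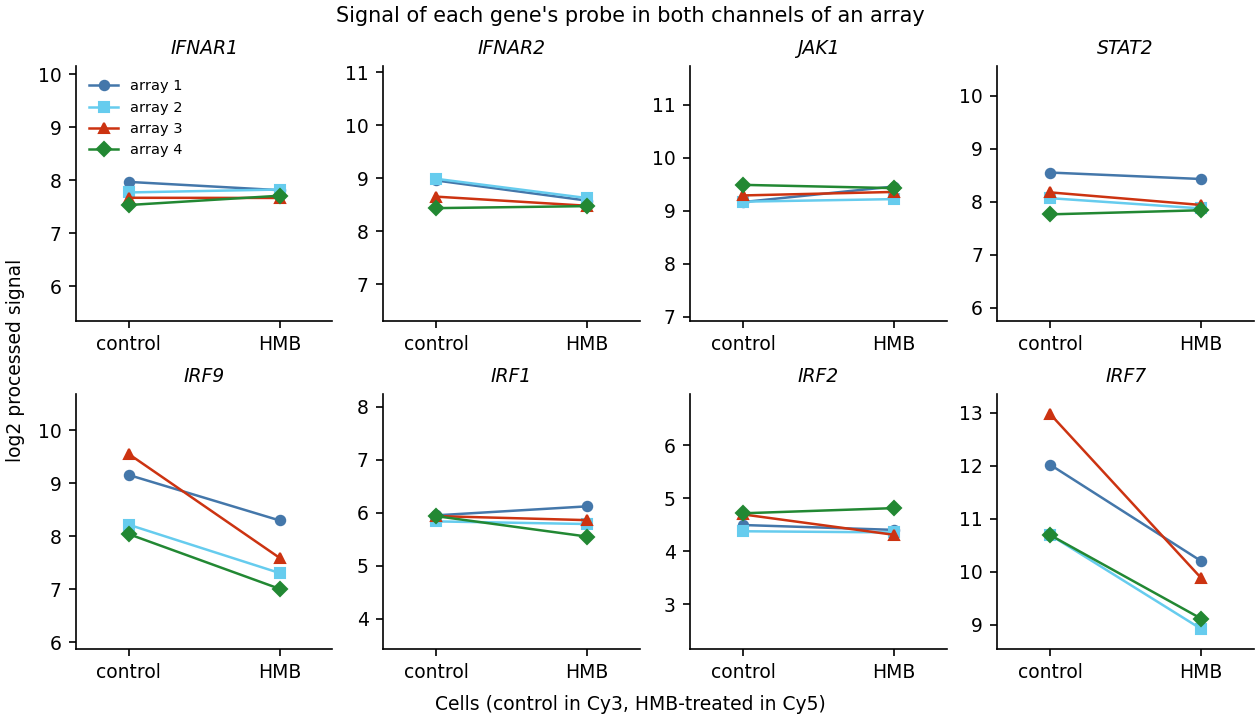
Log2 processed signal of the probe of each gene in control (Cy3) and HMB-treated (Cy5) cells, a line joining both channels of an array; each panel has its own range of the same height. *IRF7* was at 12.98 in control and 9.89 in HMB-treated cells on array 3, and at 10.69 and 9.12 on array 4, whereas the lines of *IFNAR1*, *JAK1* and *STAT2* are nearly flat.

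In order of mean ratio from the lowest, the genes were *IRF7*, *IRF9*, *IFNAR2*, *STAT2*, *IRF2*, *IRF1*, *IFNAR1* and *JAK1*. *IRF9* was above *IRF7* on every array, by 0.96, 0.86, 1.13 and 0.54, a mean of 0.87 ± 0.25. *IFNAR2* was in turn above *IRF9* by 0.97 ± 0.60. Beyond these, no gene differed from the next in order by more than the spread between arrays, the largest such step being 0.10 ± 0.36 from *IRF1* to *IFNAR1*. The ratio was lowest on array 3 for *IRF7*, *IRF9*, *STAT2* and *IRF2*, on array 1 for *IFNAR1* and *IFNAR2*, and on array 4 for *JAK1* and *IRF1*. The genes other than *IRF7* and *IRF9* had median ratios of -0.11, -0.04, -0.12 and 0.06 on arrays 1 to 4. No such gene had the same sign on all 4 arrays.

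The rule used neither the position nor the base composition of the probes. The probes that stand for *IRF7*, *IRF9* and *STAT2* are all on unplaced sequence, and the other genes are on chromosomes 5, 14, 26 and 27. Of the probe bases, 55.0% were G or C in *IRF7* and *IRF9*, 45.0% in *IFNAR2*, *IRF1*, *IRF2* and *STAT2*, and 41.7% in *IFNAR1* and *JAK1*. Among all tested genes, the 1821 whose probe had the 55.0% of *IRF7* and *IRF9* had a median ratio of 0.02, and the 4808 at 45.0% had 0.03. The ratios of *IRF7* and *IRF9* lay far below the median of probes with their base composition. Both genes were chosen with these ratios known, so this is a description. The part of base composition in their ratios was not tested.

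The genes whose ratios on the 4 arrays were most like those of *IRF7*, by the root mean square difference among 9667 named genes, were *ISG15* (0.19), *DHX58* (0.22) and *XAF1* (0.31). *ISG15* encodes a ubiquitin-like modifier, and its ratios on arrays 1 to 4 were -1.83, -1.62, -2.74 and -1.52. *DHX58* encodes LGP2, a receptor of viral RNA, and had a mean of -2.08 ± 0.87. The mean of *XAF1* was -1.96 ± 0.39, with the HMB-treated cells above background on 3 of 4 arrays. Nearest to *IRF9* were *UBE2L6* (0.16), *EQMHCC1* (0.19) and *EXPH5* (0.22). *UBE2L6*, which encodes a ubiquitin-conjugating enzyme, had a mean of -1.13 ± 0.57. *EQMHCC1*, an equine MHC class I gene, had -1.18 ± 0.32. *EXPH5* had -1.20 ± 0.57 and was above background in HMB-treated cells on 2 of 4 arrays. These genes were picked for ratios like those of *IRF7* or *IRF9*, so their own ratios are a description. The likeness depended on the processing for the dimmer ones: with another background correction and dye normalization (normexp and loess), *XAF1* had -1.25 beside -2.02 for *IRF7*, and *EXPH5* had -0.45 beside -1.04 for *IRF9*.

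The rest of the pathway was taken from lists of 102 genes, which were written with earlier results of these data known. Of the 102 genes, 73 were tested. Of these, 32 were past the threshold and lower with HMB, 7 past it and higher and 34 not past it. Their median log2 ratio was -0.20. Over all tested genes, 11.6% were past it and lower and 10.9% higher. Where both channels had to be above background on all arrays, 66 genes of the lists were left, with 27 lower and 6 higher. Among the other receptors and kinases, 0 of 6 tested genes were past it (1 had an unadjusted P under 0.05), with *TYK2*, which pairs with *JAK1*, at -0.02 ± 0.39, *JAK2* at -0.09 and *IFNGR1* at -0.05. Of the other STATs, *STAT3* had 0.15 ± 0.21 and was not past the threshold, but was past it in limma without the lowess step (adjusted P = 0.0327). *STAT5A* (0.28 ± 0.08) and *STAT6* (0.38 ± 0.16) rose in the limma test, but neither was past it without array 2 (adjusted P = 0.105 and 0.0657) or without array 3 (0.0956 and 0.0873), nor *STAT5A* without array 1 (0.0562) or with normexp and loess (0.0871). *STAT4*, the other STAT counted as higher, was above background in control cells on 0 of 4 arrays and passed the filter through HMB-treated cells alone, so that no value is given for it. Of the other regulatory factors and their binding proteins, 0 of 3 tested genes were past the threshold (0 had an unadjusted P under 0.05), and *IRF4*, *IRF5* and *IRF8* were too dim to be tested.

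Upstream of *IRF7*, the kinase gene *TBK1* had -0.20 ± 0.25 and the adaptor gene *MAVS* -0.05 ± 0.21, neither past the threshold. *TRAF3* (0.48 ± 0.18) rose, as did the second kinase gene *IKBKE* (0.37 ± 0.23), the latter not without array 1, 3 or 4 (adjusted P between 0.0882 and 0.151), nor with normexp and loess, where its log2 ratio was 0.10 (0.228), nor with a prior that follows signal (0.0542). *TLR3*, which encodes a sensor of double-stranded RNA, had -1.05 ± 0.74, but it passed the filter through control cells alone, being above background in HMB-treated cells on 3 of 4 arrays, and had -0.56 with normexp and loess, not past the threshold. Of 12 tested inhibitors of the pathway, *USP18*, whose product binds IFNAR2 and is itself induced by interferon, fell to 16.6% of control (-2.59 ± 1.00, adjusted P = 0.00578). *SOCS4* (0.22 ± 0.06) and *PTPN11* (0.25 ± 0.08) rose, and each lost its call whichever array was left out (adjusted P between 0.0570 and 0.184, and between 0.0629 and 0.183) and with normexp and loess (0.0617 and 0.0653). *SOCS4* also lost it with a prior that follows signal (0.0616). The 2 tested probes of *SOCS4* gave 0.0084 and 0.22, and their mean of 0.12 was not past the threshold in limma (adjusted P = 0.212). *SOCS3* was too dim, and *SOCS1* was not found by name. Of the interferons themselves, *IFNA1*, *IFNB1*, *IFNE*, *IFNG* and *IFNK* were too dim to be tested, and *IFND1* had 0.20 ± 0.08 and was not past the threshold.

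Downstream of ISGF3, 30 of the 33 tested interferon-stimulated targets were past the threshold and lower and 0 higher. Of all tested genes, 11.6% were past it and lower and 10.9% higher. The targets had a median log2 ratio of -1.35 against 0.02 for all tested genes. The list of targets was written with earlier results of these data known, so its counts are a description. The 6 lowest means were those of *DDX60* (-3.04 ± 0.88), *IFI44* (-2.78 ± 1.22), *IFIH1* (-2.66 ± 1.25), *MX1* (-2.63 ± 0.84), *IFIT3* (-2.58 ± 0.83) and *IFI44L* (-2.47 ± 1.05), with adjusted P values between 0.00277 and 0.0103 in limma. *IFIT3*, *XAF1*, *DTX3L* and *MX2* passed the filter through control cells alone, and with both channels required 26 of 29 targets were past the threshold. The log2 ratio of *IFIT3* was -1.44 with normexp and loess. By that processing *IFIH1* had -1.71. There, *ISG15* (-1.95) and *DHX58* (-1.76) lay below both *IFIT3* and *IFIH1*, so the 6 lowest means were not those of the same genes. The mean ratio of *IRF7* lay within the range of these targets, and that of *STAT2* close to 0. Of the 3 targets not past the threshold, *TAP2* (-0.22 ± 0.19) and *OASL* (-0.18 ± 0.10) were lower on all 4 arrays. The third, *CIITA*, was higher on all 4 (0.32 ± 0.22, adjusted P = 0.0558 in limma). Like *IRF7* and *IRF9*, the targets were lowest on array 3, with medians of -1.28, -0.70, -2.21 and -0.79 on arrays 1 to 4. Their median signal in control cells was 9.50, 8.01 and 7.94 on arrays 1, 2 and 4 and highest on array 3, so that the control samples rich in *IRF7* mRNA were also those rich in target mRNA. In HMB-treated cells the median signal of the targets was 8.04, 7.36, 8.07 and 7.24 on arrays 1 to 4. Without array 1, 19 targets were past the threshold, and 17 of the 30 were past it whichever array was left out.

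**Figure D3:**
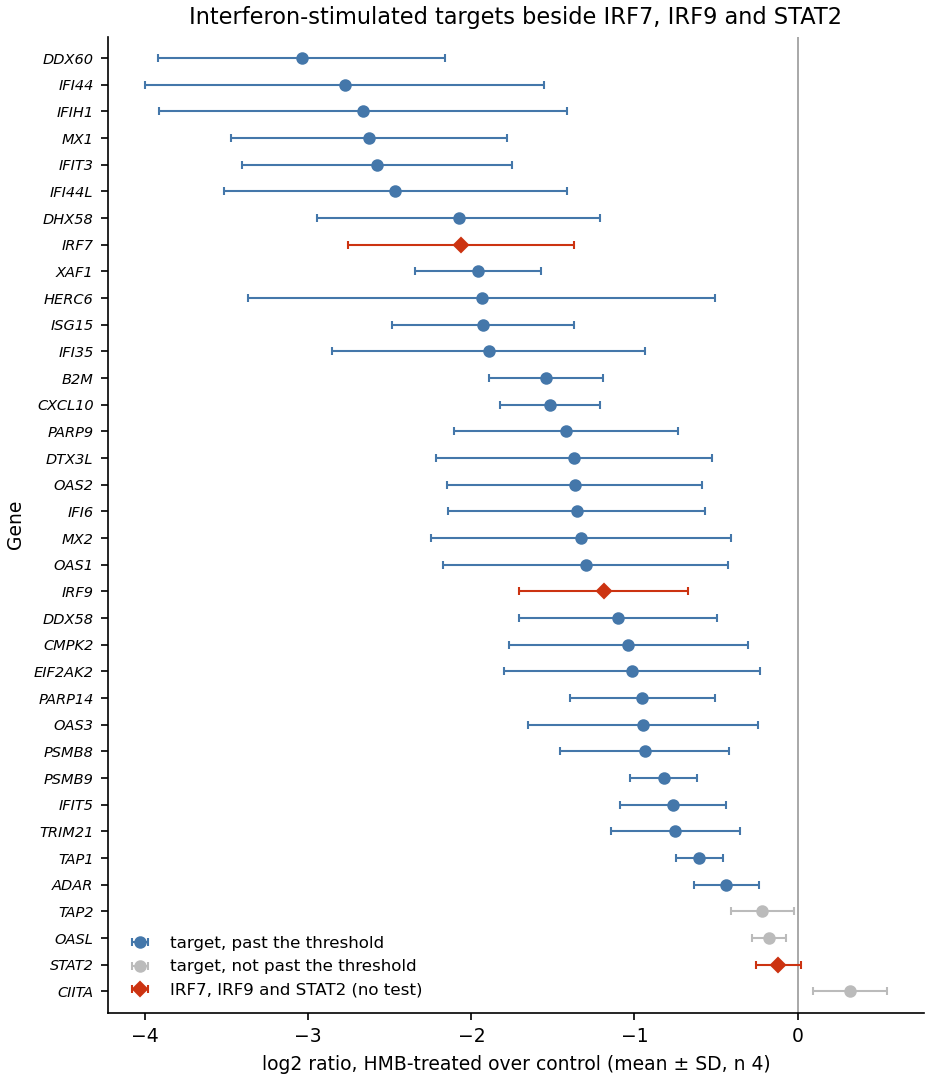
Mean log2 ratio of HMB-treated to control cells with SD (x axis, n 4) for the 33 tested interferon-stimulated targets and for *IRF7*, *IRF9* and *STAT2* (y axis, in order of the mean). *IRF7* at -2.06 and *IRF9* at -1.19 lie among the targets lower with HMB, and *STAT2* at -0.12 lies near 0.

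**Figure D4:**
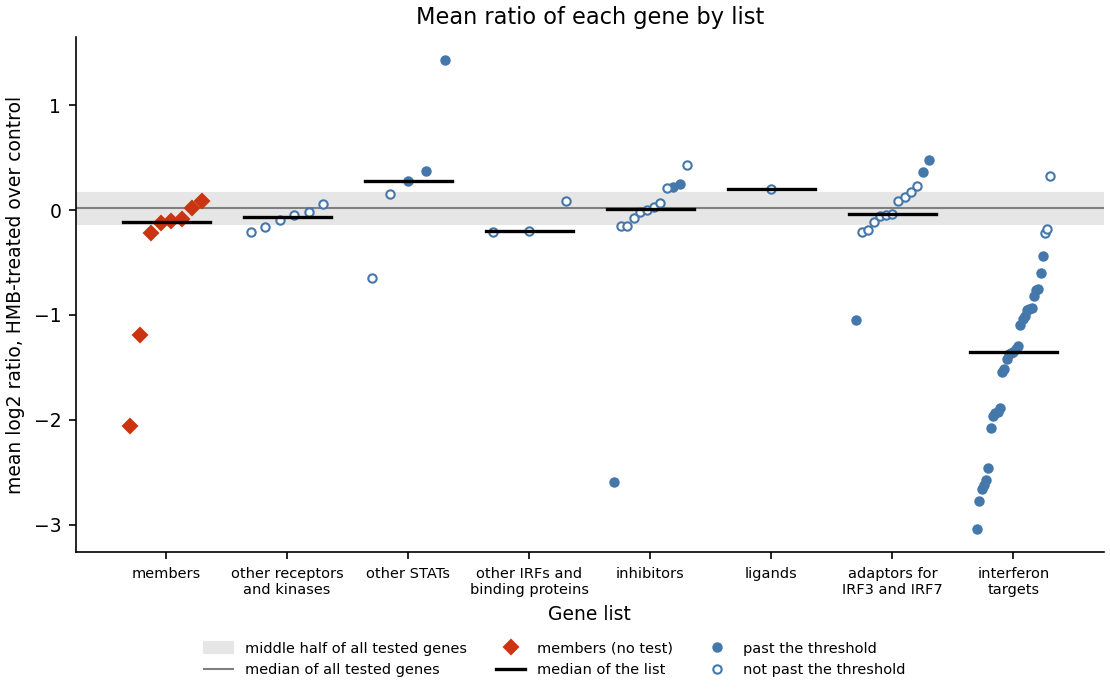
Mean log2 ratio of each tested gene (y axis) by list (x axis), with the median of each list (black bars), the median of all tested genes (grey line) and their middle part between the quartiles (grey band); the highest point of the other STATs, *STAT4*, is no measured fold because its control signal was not above background. The targets have a median of -1.35, and the members and the other lists have medians between -0.20 and 0.28.

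The labelled cell type was checked on its markers. Of 16 myogenic genes 15 were tested, *PAX7* being below background, and the desmin gene (*DES*) and *MYOG* were well above background in all samples. With HMB 14 of the 15 were past the threshold and lower, beside 11.6% of all tested genes, and the median log2 ratio was -0.87. The remaining gene, *TMEM8C*, had -0.27 ± 0.26 and was not past it. The summed signal of the myogenic genes was 371179, 365516, 423623 and 439094 in control cells on arrays 1 to 4, and 303671, 219775, 226871 and 221757 in HMB-treated cells, *ACTC1* being the brightest. Of 10 fibroblast genes 9 were tested, and *FAP* (0.42 ± 0.18) and *PDGFRA* (1.53 ± 0.47) rose, while *TCF21* was too dim. The other 7 were not past the threshold, from -0.54 ± 0.64 in *COL1A1* to 0.28 ± 0.25 in *TCF7L2*, and the median of the 9 was 0.0071. The summed signal of the fibroblast genes was 380881, 359680, 388622 and 500042 in control cells and 460431, 321112, 341401 and 339020 in HMB-treated cells, *COL1A2* being the brightest. Of 20 leukocyte genes 6 were tested and *PTPRC*, the brightest, rose (0.28 ± 0.13), though its tested probes gave means between -0.48 and 0.37, and the median of the 6 was 0.04. The others were not past the threshold, among them *CD68* (-0.29 ± 0.30), which was lower on all 4 arrays and lowest on array 3 at -0.66. The summed signal of the leukocyte genes was 18488, 16407, 18689 and 17093 in control cells and 23744, 18257, 21004 and 18255 in HMB-treated cells. In both channels this sum was higher on arrays 1 and 3 than on arrays 2 and 4, as the signal of *IRF7* was. On every array, though, the sum was higher in HMB-treated than in control cells, whereas the signal of *IRF7* was lower. The leukocyte genes *CD3E*, *CD4*, *CD48*, *CD86*, *CD8A*, *ITGAM*, *LAPTM5* and *TYROBP* were above background on 0 arrays, *AIF1*, *CSF1R*, *ITGAX* and *LYZ* were too dim to be tested, and 0 of 8 endothelial genes could be tested. The part of these marker genes in the ratios of *IRF7* and *IRF9* was not tested.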

How the data were processed

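The log10 ratios were used as deposited: per the file headers, Agilent Feature Extraction 10.10.1.1 (the methods name 10.7.3.1) detrended the signals, applied linear and lowess dye normalization without subtracting a local background, and put surrogates in place of signals near background. The deposited signal intensity of each channel came out of the same steps, and the deposited marks of 0 or 1 say which spots were above background, saturated or uneven, as that program set them. Ratios were multiplied by 3.32 to reach log2.

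Control spots and marked spots were dropped and spots of a probe averaged. A probe was tested if the same channel was marked as well above background on every array, and 16219 probes were not. limma (3.58.1, R 4.3.3) tested the mean ratio against 0, P values were adjusted by Benjamini-Hochberg across the tested probes, and 0.05 was the limit. The 4 arrays pair HMB-treated with control cells; with the array as replicate block in a fit of separate channels, 6257 probes were past the threshold, as in the fit of ratios. An exact sign-flip test of 4 arrays cannot give a two-sided P under 0.125, so none was used for single genes. The labels' description calls the treated cells GO-treated; titles and source names, which say HMB, were followed.

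Gene names came from the files, then from the RefSeq gene table (assembly TB-T2T, names only) and the descriptions. The members and the lists were chosen with earlier results of these data known. By rule, the genes named were the members, genes of set roles that include *STAT3*, *TYK2*, *JAK2*, *IFNGR1*, *IFNGR2*, *SOCS1*, *SOCS3*, *USP18*, *TBK1* and *MAVS*, the genes of each list past the threshold (at most the 6 with the largest ratio), and the 3 genes nearest to each of *IRF7* and *IRF9*. Other genes given by name, such as *IL10RB*, *IFND1*, the targets not past the threshold and the markers *DES* and *MYOG*, were chosen after their values were seen. Alternatives were another background and dye normalization (normexp with offset 50), no lowess, a one-sample t-test of each probe alone, an intensity trend with robust prior, separate channels with and without the block, no filter on dim probes or one asking for both channels, marked spots kept, the series value table, the mean of a gene's probes, a minimum of 1.3-fold, and leaving out each array.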

Additional observations from a re-analysis of the deposited data

Results flagged for a closer look

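Among 37 genes checked, 3 had an array whose gap to the nearest of the others, divided by the range over the 4 arrays, was above Dixon's critical value for 4 samples, which chance passes in about 1 of 20 groups. The log2 ratio of *IRF7* on array 3 was -3.09, with a gap of 0.840 of the range, and the mean without that array was -1.72. The log2 ratio of *IRF9* on array 3 was -1.96, with a gap of 0.842, and the mean without it was -0.93. *TRAF3* stood high on array 4, at 0.74, with a gap of 0.914, and its mean without that array was 0.39. The ratios of *IRF7* and *IRF9* were below 0 on the remaining arrays too. The array on which *IRF7* and *IRF9* stood lowest was also that on which 30 of the 33 interferon-stimulated targets stood lowest. Of 43803 non-control spots, 32 were marked and dropped on array 3, against 11, 17 and 15 on arrays 1, 2 and 4. The part of the array in these values was not tested.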

How the results depend on the processing

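The mean log2 ratios of the 8 members moved by less than their spread with normexp and loess, without lowess, with the mean of a gene's probes and with each array left out: *IRF7* lay between -2.22 and -1.72, *IRF9* between -1.30 and -0.93, and the others between -0.31 and 0.22. The other alternatives left these means as they were, most by construction, and say nothing of their stability. Counts of members past the threshold, 2 in the fit reported, were 0 with a one-sample t-test of each probe alone (2 unadjusted), 1 with no replicate block, 1 with no filter on dim probes and 3 without array 4. No gene named here and past the threshold changed sign under any alternative tried for it. Means near 0 did: *IFNAR1* lay between -0.03 and 0.12 and *IRF1* between -0.17 and 0.01, and *IFNGR1*, *IFNGR2*, *MAVS* and *TYK2* also took both signs.

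The counts past the threshold depended on the processing more than the ratios did. Over the whole array 6257 probes were past it. Without lowess there were 10962, 77.0% of them higher in place of 49.1%, and the median of all probes moved from 0.02 to 0.15; with no filter on dim probes there were 3690, and with a minimum of 1.3-fold 3863. That t-test left 768 (8435 at an unadjusted P under 0.05), and separate channels with no replicate block 2226. Leaving out each array gave 2573 to 4957.

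Of the 73 tested pathway genes 39 were past the threshold, against 0 with the t-test (39 unadjusted) and 13 with no replicate block. With no filter the tested set grew to 93 genes, of which 14 were past it, and 12 of the 39 were still past it. Leaving out an array gave counts from 23 of 73 (without array 1) to 37 of 76 (without array 4). Of the 33 targets 30 were past it, against 0 with the t-test (25 unadjusted) and 12 with no block. With no filter 38 targets were tested and 9 were past it. Counts with an array left out ran from 19 of 33 (without array 1) to 31 of 34 (without array 4). Leaving out an array takes away a replicate, and dropping the filter or the block changes what is tested or the error used; the cause was not tested further. Of 29 named genes other than the members, 21 lost their call with the t-test, 14 with no block and 12 with no filter.

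Signal over background limits what dim genes can show: its median was 3.16 to 3.82 in Cy3 and 4.68 to 5.85 in Cy5. Ratios of genes near background, such as *STAT4*, *EXPH5* and *IFIT3*, depend on surrogates. The slope of the spike-in ratios was 0.803 to 0.859. With 4 arrays, no dye swap and colts not assigned to arrays, the number of independent animals behind the P values is unknown.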
